A study of Mus musculus with 4 samples.

Results

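The Krüppel-like factors (KLFs) were followed in haematopoietic stem cells (HSCs) that differed in their level of N-myc. The family was taken as 10 genes, Klf2, Klf3, Klf4, Klf5, Klf6, Klf7, Klf9, Klf10, Klf12 and Klf13, out of 18193 genes on the array. They were measured by 38 probe sets that the platform annotation assigns to a single one of them, out of 34945 such probe sets. The brightest probe set of a gene, by its mean over all arrays, represents that gene. Every other probe set is counted and drawn in the figures, and some are also given by value.

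The cells came from bone marrow of transgenic mice whose N-myc gene product is fused to the red fluorescent protein mCherry. Lineage-negative, Sca-1 and Kit positive cells that lacked CD48 and carried CD150 were split by mCherry into 2 fractions, N-myc high and N-myc low, without culture or treatment. Both fractions carry the fusion, and samples labelled mouse 1 and mouse 2 gave 1 array each per fraction, so 4 arrays in all. The strain, age and sex of the animals, and the promoter in front of the fusion, were not given in the sources used here.

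KLFs are transcription factors that bind CACCC and GC-rich sequences through zinc fingers at their C-terminal end. Some members mainly activate genes and others recruit repressors such as CtBP or Sin3A. In blood cells Klf2 keeps T cells quiescent, Klf4 acts in monocytes and restrains cell division, and Klf3 acts in erythroid and B cells. Klf2, Klf4, Klf6 and Klf10 are also induced quickly by serum, shear stress, cytokines or tissue handling. MYC family proteins, N-myc included, bind DNA together with MAX at the E-box CACGTG.

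Promoters of 4 members are shown, because Klf4, Klf6 and Klf9 were the members higher in N-myc high cells of both mice and Klf2 had the widest spread between arrays. Each is the stretch of 250 bases before the gene start in RefSeq (GRCm38.p6), read 5′ to 3′ on the strand of the gene. Capitals mark the E-box in Klf4 and Klf6 and a match to the site of MEF2, a factor known to drive Klf2, in Klf2. The Klf9 stretch held neither.
Klf4 (chr4:55532476-55532725, minus strand): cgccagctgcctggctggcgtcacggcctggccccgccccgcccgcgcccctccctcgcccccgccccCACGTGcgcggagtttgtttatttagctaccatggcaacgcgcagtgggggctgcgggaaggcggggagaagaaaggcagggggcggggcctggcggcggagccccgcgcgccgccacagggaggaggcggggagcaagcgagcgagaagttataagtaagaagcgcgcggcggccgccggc
Klf6 (chr13:5861239-5861488, plus strand): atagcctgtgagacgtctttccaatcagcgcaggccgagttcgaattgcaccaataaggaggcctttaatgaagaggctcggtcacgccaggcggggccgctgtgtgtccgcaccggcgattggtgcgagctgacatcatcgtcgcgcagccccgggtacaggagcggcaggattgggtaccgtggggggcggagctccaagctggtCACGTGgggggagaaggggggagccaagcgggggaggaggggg
Klf9 (chr19:23140976-23141225, plus strand): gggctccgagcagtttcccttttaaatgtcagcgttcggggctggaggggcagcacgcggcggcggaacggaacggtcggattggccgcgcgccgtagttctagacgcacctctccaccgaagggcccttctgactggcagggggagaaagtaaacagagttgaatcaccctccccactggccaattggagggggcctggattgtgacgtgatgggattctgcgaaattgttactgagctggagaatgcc
Klf2 (chr8:72318812-72319061, plus strand): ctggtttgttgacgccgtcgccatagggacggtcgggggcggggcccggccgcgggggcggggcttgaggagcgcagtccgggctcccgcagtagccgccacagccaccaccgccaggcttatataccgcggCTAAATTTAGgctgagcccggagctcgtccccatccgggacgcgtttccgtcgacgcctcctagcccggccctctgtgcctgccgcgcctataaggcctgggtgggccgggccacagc

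The E-box began 182 bases before the start of Klf4 and 43 bases before that of Klf6. Windows of 300 bases, from 250 before to 50 after the start, were found for 8 of the 10 genes, and 2 of these held CACGTG, against 7.15% of 32851 RefSeq windows. The MEF2 site, whose match in Klf2 began 118 bases before the start, was found in 1 of the 8 windows and in 0.557% of all windows. The CACCC box, searched as CACCC or its reverse complement GGGTG, was found in 6 of the 8 (Klf2, Klf3, Klf7, Klf9, Klf12 and Klf13) and in 57.5% of all. The CArG box, bound by serum response factor, was found in 0 of the 8 and in 1.63% of all. Both strands were covered in each search, and 0 matches of different motifs overlapped in these 8 windows. A match is a description of letters and was not tested for binding.

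Some facts of the arrays touch all values below. Median log2 intensities were between 5.26 and 5.32, and Mycn was higher in the N-myc high fraction of both mice, by 1.05 and 0.74 on the log2 scale. Kit and Slamf1, which encode the sort markers Kit and CD150, lay between 10.17 and 10.53 and between 8.01 and 8.99. Cd48, the gene of the surface protein that the sort selects against, was at 7.42 and 7.11 in the N-myc high arrays and at 9.89 and 9.07 in the low ones, a difference of -2.21 with groups apart (limma adjusted p = 0.744). The E. coli hybridisation controls BioB and BioC were brightest on the N-myc low array of mouse 2. Xist was at 11.38 and 11.10 on the arrays of mouse 1 and at 3.84 and 3.70 on those of mouse 2, while the Y-linked Eif2s3y was at 8.53 and 8.43 in mouse 1 and at 9.40 and 9.67 in mouse 2 (N-myc high first), so the mouse 1 arrays carry both, and whether they hold RNA of 1 animal was not tested. Results are therefore also given within each mouse number and without each array.

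No KLF gene passed the test between the fractions. In limma, 0 of the 10 genes reached a Benjamini-Hochberg adjusted p under 0.05, where 0% of all genes did, and 1 reached an unadjusted p under 0.05, where 3.53% of all genes were higher and 2.78% lower at that level. Klf4, Klf6 and Klf9 were higher in the N-myc high fraction of both mice, 3 of 10 genes where 23.2% of all genes were. Klf7 and Klf10 were lower in both mice, 2 of 10 where 29.7% of all genes were. With the mean of a gene's probe sets in place of the brightest one, 4 genes were higher and 5 lower in both mice. The share of all genes was not counted under that mean, so the 4 and 5 have no background beside them. The counts thus depend on the probe set rule and single out no direction for the family. The median difference over the 10 genes was -0.11 on the log2 scale, and it was -0.03 over all genes.

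**Figure D1:**
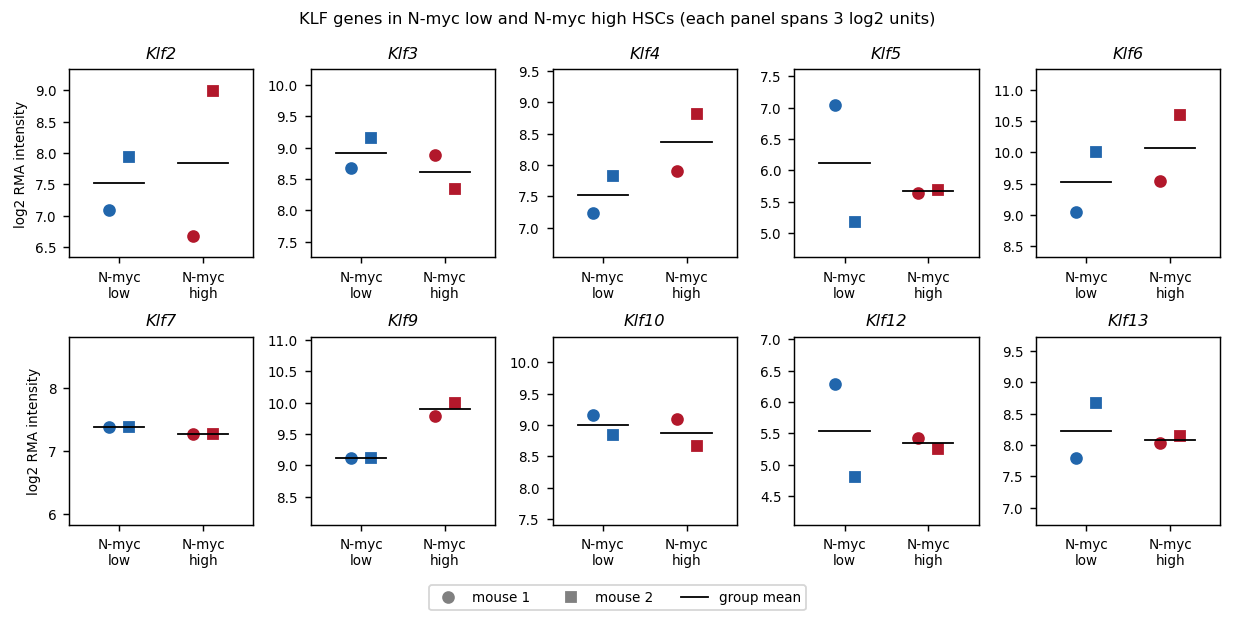
Log2 RMA intensity of the 10 KLF genes (vertical axis) in the N-myc low and N-myc high fractions (horizontal axis), 1 point per array, with circles for mouse 1, squares for mouse 2 and a line at the mean of each group. Klf9 is tight within groups and 0.78 higher in N-myc high, whereas Klf2 runs from 6.67 to 8.995 within the N-myc high group.

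Klf9, a factor induced by glucocorticoid and thyroid hormone, had the smallest p when each member was read from its brightest probe set. It was at 9.79 and 10.00 in the N-myc high arrays of mouse 1 and mouse 2 and at 9.12 and 9.11 in the N-myc low arrays. Both high arrays lay above both low arrays, and the groups were each narrow. The means were 9.89 ± 0.144 (SD, n = 2) and 9.12 ± 0.00746 (SD, n = 2), a 1.72-fold difference. The log2 difference of 0.78 had an SE of 0.185 and a 95% interval from 0.29 to 1.27, and it missed the threshold (limma adjusted p = 0.762). With all 4 fits that leave out 1 array it stayed between 0.68 and 0.88.

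The other 6 probe sets of Klf9 did not give 1 answer. The second brightest, 1428289_at, was at 8.66 and 8.86 in N-myc high and at 8.99 and 9.33 in N-myc low, so it lay apart in the opposite direction by -0.40. Of the 7 probe sets, 5 were higher and 2 lower in N-myc high on average, 3 were higher and 1 lower in each of the mice, and the differences ran from -0.40 to 0.78. The mean over the probe sets gave 0.33.

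Klf4, a restrainer of cell division that is also known as a reprogramming factor, was at 7.91 and 8.81 in N-myc high and at 7.24 and 7.82 in N-myc low (mouse 1 and mouse 2). The groups did not overlap, but both arrays of mouse 2 were above the array of the same fraction from mouse 1. The means were 8.36 ± 0.638 (SD, n = 2) and 7.53 ± 0.415 (SD, n = 2), 1.78-fold apart. The difference of 0.83 had an SE of 0.397 and an interval from -0.22 to 1.89 (limma adjusted p = 0.793). Within the mice it was 0.68 and 0.99. Leaving out N-myc high mouse 2 gave 0.38, and leaving out N-myc high mouse 1 gave 1.28. Its other probe set, 1417394_at, was at 7.26 and 8.32 in N-myc high and at 6.86 and 7.67 in N-myc low, a difference of 0.53 with overlapping groups.

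Klf6, an early response gene that acts in endothelium and in inflammation, was at 9.54 and 10.60 in N-myc high and at 9.05 and 10.01 in N-myc low. The groups overlapped, because N-myc low mouse 2 was above N-myc high mouse 1, and the mice differed by 1.05 within N-myc high and by 0.96 within N-myc low. Within the mice the high fraction was above the low one by 0.49 and 0.59. The group difference of 0.54 had an SE of 0.504 and an interval from -0.80 to 1.88 (limma adjusted p = 0.866). Leaving out N-myc high mouse 2 gave 0.01, and leaving out N-myc low mouse 2 gave 1.02. All 5 probe sets had a higher mean in N-myc high, from 0.08 to 1.18, and 2 of them were higher in both mice. The other 3 differed by -0.01, -0.01 and -0.38 in mouse 2.

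Klf2, the quiescence factor of T cells, was measured by 1 probe set and had the widest range of the members. It was at 6.67 and 8.995 in N-myc high and at 7.10 and 7.94 in N-myc low. Mouse 1 of the high group was thus the lowest array and mouse 2 of that group the highest, and the difference was -0.42 in mouse 1 and 1.06 in mouse 2. The groups differed by 0.32 on average, with an SE of 0.839 and an interval from -1.91 to 2.55 (limma adjusted p = 0.966). This value was -0.84 when N-myc high mouse 2 was left out, and 1.48 when N-myc high mouse 1 was.

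**Figure D2:**
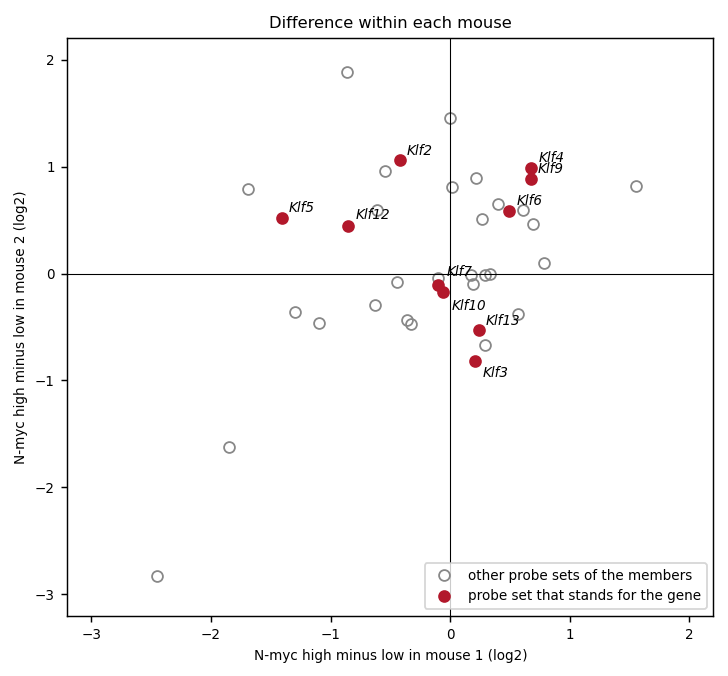
Log2 difference between N-myc high and N-myc low in mouse 1 (horizontal axis) and in mouse 2 (vertical axis) for the 38 KLF probe sets, with filled points for those that stand for a gene and open points for the others. Klf4, Klf6 and Klf9 lie at the upper right, above 0 on both axes, Klf2, Klf5 and Klf12 are positive in mouse 2 and negative in mouse 1, and the 2 open points at the lower left are Klf7 probe sets.

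Klf10, an early gene of TGF-beta signalling, was measured by 1 probe set at 9.09 and 8.67 in N-myc high and at 9.15 and 8.84 in N-myc low. The groups overlapped and the mouse 1 array was the higher in each fraction, the reverse of Klf2, Klf4 and Klf6. The difference of -0.12 had an SE of 0.246 (limma adjusted p = 0.949) and an interval from -0.77 to 0.53. Leaving out N-myc high mouse 2 or N-myc low mouse 1 turned it to 0.09 and 0.04.

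Klf7, which is known from neuronal development and from childhood leukaemia, depended on the probe set. The brightest, 1419354_at, was at 7.28 and 7.27 in N-myc high and at 7.38 and 7.38 in N-myc low, a difference of -0.11 (SE 0.172, limma adjusted p = 0.930) with an interval from -0.57 to 0.35. The probe set 1449439_at was at 5.54 and 4.90 in N-myc high and at 7.39 and 6.52 in N-myc low, which is 3.33-fold lower. The probe set 1419355_at was at 4.48 and 3.39 in N-myc high and at 6.93 and 6.22 in N-myc low, which is 6.23-fold lower. Its N-myc high values lie below the array medians with no measured background beside them, so the size of this fold is uncertain. The N-myc high value of 1449439_at in mouse 2 also lies below its array median, 5.28, so that fold is uncertain as well.

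For both of these dimmer probe sets the high arrays lay below the low arrays, by -1.73 (SE 0.404) and -2.64 (SE 0.475) on the log2 scale. Neither passed when all 34945 probe sets were tested, with a limma adjusted p of 0.775 for each. Their unadjusted limma p in that fit, 0.0103 and 0.00388, lay below the 0.0129 of the brightest Klf9 probe set. The last Klf7 probe set, 1419356_at, gave 0.21 with opposite signs in the mice. All 4 were designed from 1 transcript record, as the platform annotation lists it, so they do not stand for different genes. The mean of the 4 probe sets gave -1.07, against -0.11 for the brightest. Which of these readings follows the Klf7 transcript was not tested.

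Klf3, a repressor that recruits CtBP, was at 8.89 and 8.34 in N-myc high and at 8.68 and 9.16 in N-myc low. The groups overlapped and the mice had opposite signs, 0.21 and -0.82. The difference was -0.30 (SE 0.297, limma adjusted p = 0.873), with an interval from -1.09 to 0.49, and it ran from -0.58 to -0.03 without 1 array. Its 7 probe sets gave 3 higher and 4 lower means. The one with the largest size, 1429360_at, was at 6.91 and 7.21 in N-myc high and at 8.004 and 7.68 in N-myc low, which is 1.72-fold lower with groups apart (limma adjusted p = 0.775 over all probe sets).

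Klf12, a repressor of the AP-2 alpha gene that also binds CtBP, was at 5.43 and 5.25 in N-myc high and at 6.28 and 4.80 in N-myc low. The low arrays lay on either side of the high ones, and the difference of -0.20 (SE 0.525, limma adjusted p = 0.965) was -0.85 in mouse 1 and 0.44 in mouse 2. Its 3 dimmest probe sets went the other way in both mice. Of these, 1455521_at was at 4.73 and 4.73 in N-myc high and at 4.12 and 4.14 in N-myc low, a difference of 0.60, and 1439847_s_at differed by 0.58, both with groups apart. The mean of the 5 probe sets was 0.30. All 5 lay in the dimmer 50% of probe sets, with at most 45.4% of all probe sets below them, and no measured background stands beside them.

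Klf5, a driver of proliferation that is also needed for HSC homing, was at 5.64 and 5.69 in N-myc high and at 7.05 and 5.17 in N-myc low. N-myc low mouse 1 stood apart as the highest array, and the difference of -0.44 (SE 0.650, limma adjusted p = 0.925) turned to 0.50 without it. The other 2 probe sets were lower in both mice with groups apart, by -0.46 and -0.83, although both were dim, with 33.1% and 24.5% of probe sets below them.

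Klf13, which activates Ccl5 in T cells, was at 8.03 and 8.14 in N-myc high and at 7.79 and 8.67 in N-myc low. The low arrays again lay on either side of the high ones, with differences of 0.24 in mouse 1 and -0.53 in mouse 2, and the group difference was -0.15 (SE 0.340, limma adjusted p = 0.956). The other 2 probe sets, 1432543_a_at and 1456030_at, were lower in both mice with groups apart, by -0.26 and -0.40.

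**Figure D3:**
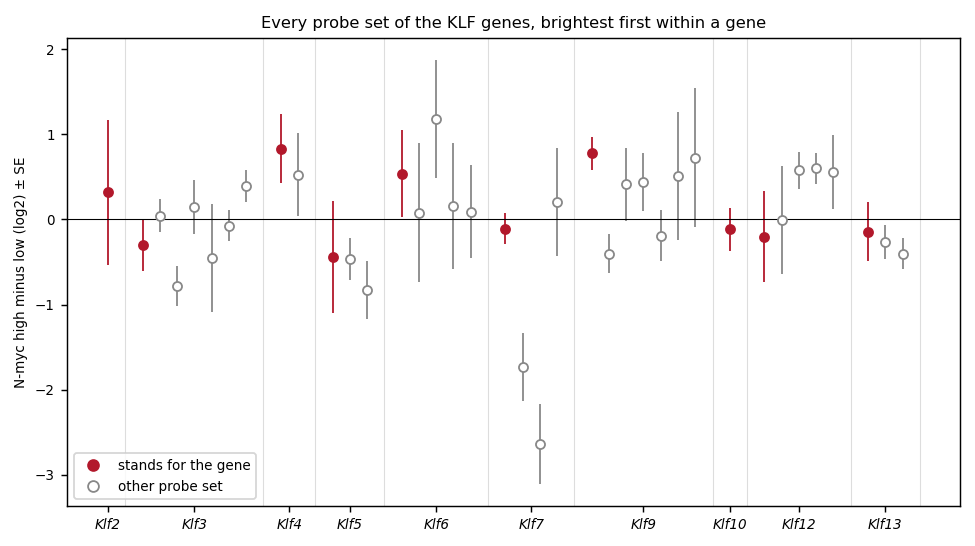
Log2 difference between N-myc high and N-myc low with its SE (vertical axis) for each of the 38 probe sets, grouped by gene (horizontal axis) and ordered from the brightest to the dimmest within a gene, with filled points for those that stand for the gene. Klf4 and Klf6 are above 0 in every probe set, Klf5 and Klf13 below 0 in every one, and Klf7 spreads from -2.64 to 0.21.

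Over all 38 probe sets, 20 had a higher and 18 a lower mean in N-myc high, and 0 passed the adjusted threshold, where 0% of all probe sets did. A count of 11 was higher and 11 lower in both mice, where 23% and 29.8% of all probe sets were. Groups lay apart with N-myc high above for 5 and below for 10 of the 38, where 15.4% and 20.8% of all probe sets did. The 5 came from Klf3, Klf4, Klf9 and Klf12, and the 10 from Klf3, Klf5, Klf7, Klf9 and Klf13. Probe sets of a gene read the same gene, so they are not independent. By the platform annotation, the 7 of Klf3 were designed from 7 transcript records and the 3 of Klf13 from 3, whereas the 4 of Klf7 share 1. At the gene level 2 of the 10 genes, Klf4 and Klf9, lay apart above, where 15.6% of all genes did, and 1, Klf7, lay apart below, where 20.8% did. At an unadjusted p under 0.05, 2 of the 38 were higher and 3 lower, where 3.36% and 2.96% of all probe sets were.

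Klf2, Klf4, Klf6 and Klf13 were higher in mouse 2 than in mouse 1 in both fractions. Within N-myc high, mouse 2 was above mouse 1 by 2.32 for Klf2, 0.90 for Klf4 and 1.05 for Klf6, and within N-myc low by 0.84, 0.59 and 0.96. For Klf13 these differences were 0.11 and 0.87. Klf9 differed by only 0.20 and -0.01 between the mice. By the root mean square distance of the 4 mean-centred values, Klf4 and Klf6 were each other's closest member (0.204), as were Klf5 and Klf12 (0.203) and Klf7 and Klf10 (0.184), and Klf2 was closest to Klf6 (0.464). The distance is not scaled to the spread of a gene, so it also pairs genes that vary little. Klf7 spanned only 0.113 over the arrays and Klf10 0.486. With 4 arrays these pairs are a description.

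Immediate-early genes, which cells induce within minutes of a stimulus and also during handling, were higher in the N-myc high fraction of both mice, as Klf4 and Klf6 were, for 13 of 18 genes. Over all genes 23.2% were higher in both mice. Of the other 5, Jun, Atf3 and Egr3 had a lower mean in N-myc high, with -0.08, -0.10 and -0.08, and 0 of the 18 were lower in both mice, where 29.7% of all genes were. In limma 0 passed the adjusted threshold, and 2 were higher at an unadjusted p under 0.05, where 3.53% of all genes were. Their median difference was 0.33, against -0.03 over all genes, and 5 had groups apart with N-myc high above, where 15.6% of all genes did. The mean log2 level of the list was 8.69 and 9.24 in the N-myc high arrays of mouse 1 and mouse 2 and 8.21 and 8.89 in the low ones, which is the order of the arrays for Klf6, over a narrower range. The 3 of smallest p were Maff, a small Maf factor, with 0.83 (SE 0.181), the phosphatase gene Dusp2 with 0.78 (SE 0.270) and Jund of AP-1 with 0.60 (SE 0.255). The part of handling or of the mouse in the Klf2, Klf4 and Klf6 values was not tested.

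**Figure D4:**
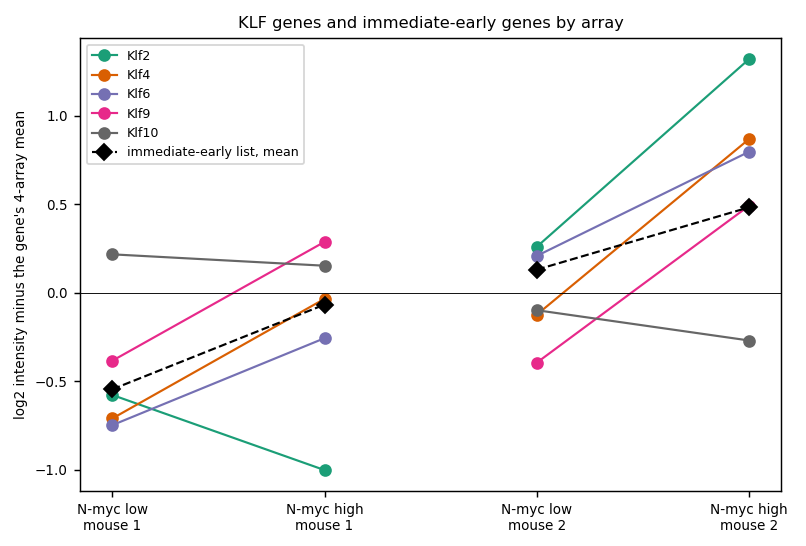
Log2 intensity minus the mean over the 4 arrays (vertical axis) for Klf2, Klf4, Klf6, Klf9, Klf10 and the mean of 18 immediate-early genes, by array (horizontal axis), with lines that join the fractions of 1 mouse. Klf4, Klf6 and the immediate-early mean are higher in N-myc high within each mouse and higher in mouse 2 for the same fraction, while Klf9 differs by at most 0.20 between the mice.

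Other genes of the family and of its partners were read from lists, whose counts stand against 23.2% of all genes higher and 29.7% lower in both mice. Of 16 other KLF and SP genes, 13 were measured. In both mice 1 was higher and 6 were lower, with a median difference of -0.20. Klf1, the erythroid activator of the family, was at 7.98 and 7.47 in N-myc high and at 8.57 and 8.73 in N-myc low, a difference of -0.93 (SE 0.249, limma adjusted p = 0.762). The erythroid markers Gata1 and Slc4a1 were lower in both mice as well, with -0.80 and -0.68, whereas Rhag was higher by 0.63. Rhag was dim, at 3.54 and 3.42 in N-myc high and at 2.88 and 2.82 in N-myc low. Only 15.1% of probe sets lay below it. The general activator gene Sp1 gave -0.29 and Sp5 -0.27.

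Among 12 cofactors and ubiquitin ligases of KLF proteins, 3 were higher and 2 lower in both mice, with a median of -0.02. Wwp1, a ubiquitin ligase that targets Klf2 and Klf5 protein, was higher by 0.62 (SE 0.226), the acetyltransferase gene Ep300 gave -0.46 and Kat2b 0.21. The CtBP and Sin3 genes were not among the 3 of smallest p.

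The pathways known to act upstream of KLF genes, MEK5-ERK5-MEF2, FOXO, TGF-beta with its Smads, the glucocorticoid receptor and serum response factor, had 7 of 15 genes above and 2 below N-myc low in both mice, with a median of 0.09. Tgfbr2, a TGF-beta receptor gene, was higher by 0.63 (SE 0.202) and its signal carrier Smad3 by 0.56 (SE 0.207), while Klf10, their target, was at -0.12. Mef2a gave -0.62 (SE 0.234).

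Genes known as KLF targets were not of a single sign, with 5 higher and 3 lower in both mice among 12 measured of 14 and a median of 0.13. The cyclin gene Ccnd1, a target of Klf5, was at 8.87 and 8.41 in N-myc high and at 7.62 and 7.79 in N-myc low, a difference of 0.93 (SE 0.236). The chemokine gene Ccl5, a target of Klf13, was at 4.81 and 5.72 in N-myc high and at 6.11 and 7.17 in N-myc low, a difference of -1.37 (SE 0.495). Itgb7, an integrin gene that Klf2 acts on in lymphocytes, gave -0.64. Across these 4 lists, 0 genes passed the adjusted threshold in limma, and at an unadjusted p under 0.05 there were 4 higher and 3 lower among 52 measured genes, where 3.53% and 2.78% of all genes were.

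Markers of other cell types were measured in the same arrays, since in sorted bulk cells fewer cells of a type and less RNA per cell cannot be told apart. Over all genes, 23.2% were higher and 29.7% lower in both mice. HSC markers were higher in both mice for 5 of 7 genes (median 1.05). Their mean level was 9.06 and 9.28 in the high arrays against 8.54 and 8.16 in the low arrays. Granulocyte markers were lower in both mice for 6 of 7 (median -0.26, mean level 11.50 and 11.15 against 11.68 and 11.67). Erythroid markers were lower in both for 4 of 5 (median -0.68, 6.38 and 6.07 against 6.79 and 6.52). Klf1, described above, is itself among these 4. Megakaryocyte markers were lower in both for 4 of 5 (median -0.47, 8.13 and 7.81 against 8.50 and 8.15). Macrophage markers were higher in both mice for 5 of 8 (median 0.26, 6.06 and 5.87 against 5.51 and 5.00). C1qb gave 2.66, with 2.48 in mouse 1 and 2.84 in mouse 2. Mrc1 gave 2.26, but with 0.73 in mouse 1 and 3.80 in mouse 2, where the N-myc low array was at only 2.59. C1qa and C1qc gave 0.32 and 0.26 with overlapping groups. Adgre1 and Cd68 had lower means in N-myc high, with -0.14 and -0.10. B cell, T and NK cell and endothelial markers had medians of -0.18, 0.01 and 0.04. The sort for lineage-negative, Sca-1 and Kit positive cells is meant to remove mature cells of these types. Even so, the granulocyte markers S100a8 and S100a9 were among the brightest probe sets in both fractions. S100a8 lay between 13.22 and 13.42 and S100a9 between 13.44 and 13.69. The part of such cells or transcripts in the KLF values was not tested.

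**Figure D5:**
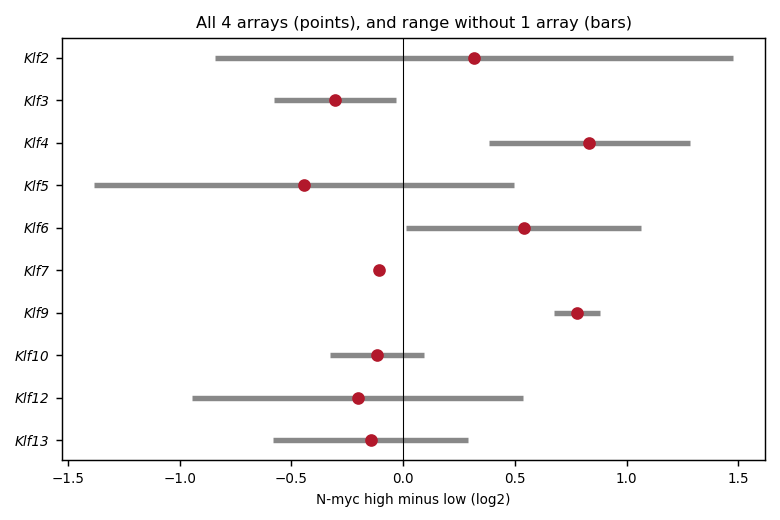
Log2 difference between N-myc high and N-myc low (horizontal axis) for each KLF gene (vertical axis), with points for all 4 arrays and bars from the lowest to the highest value when 1 array is left out. The bars of Klf3, Klf4, Klf6, Klf7 and Klf9 stay on 1 side of 0, and those of Klf2, Klf5, Klf10, Klf12 and Klf13 cross it.

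The sign of the difference held in all 4 fits without 1 array for 5 members, Klf3, Klf4, Klf6, Klf7 and Klf9, and changed in at least 1 for the other 5. Of those that held, Klf6 came down to 0.01 and Klf3 to -0.03, in both cases when N-myc high mouse 2 was left out. The share of all genes whose sign held in these fits was not counted, so the 5 members cannot be called unusually stable. Centring the arrays on their median, or normalising the gene table by quantiles again, kept the sign of all 10 members. Centring lowers the difference of every gene by the same amount. For Klf2, the smallest positive difference of a member, it went from 0.32 to 0.27, and the quantile step gave 0.30. A change of sign was thus hardly possible, and these scalings are a weak check.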

How the data were processed

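The authors deposited log2 intensities per probe set. Per the submitters' processing notes they come from RMA, with affy and limma (no versions). RMA equalises the quantiles of probe intensities between arrays before it summarises probe sets, which removes most of a shift common to all genes. For the build, chip definition and filters, nothing is stated in the sources used here. Per the labels' protocols, 5 ng of RNA was amplified with NuGEN Ovation, and precision is limited by the number of arrays.

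Of 45101 probe sets, 34945 carry 1 gene name in the platform annotation. All 18193 genes were fitted with limma 3.58.1 in R 4.3.3 (lmFit, eBayes) without a mouse term, and p-values were adjusted by Benjamini-Hochberg over all of them. A second fit covered every probe set. With 2 against 2 arrays, the smallest two-sided p of an exact permutation test is 0.333. On simulated data for this comparison (18193 genes), the fit recovered 0.149% of the genes that differed by 1 on the log2 scale, 8.73% at 2 and 63.4% at 3, so a missed threshold does not show equal levels. The limma SEs, intervals and p-values are moderated by eBayes. They combine the spread between these samples with a prior taken from all genes or probe sets fitted. In the gene fit this prior had 2.51 degrees of freedom. For Klf7 the SE was thus 0.172, although the group SDs were 0.00484 (high) and 0.00109 (low).

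Same-numbered arrays were read as 1 animal, as the labels name the mouse. Their deviations from the group means correlated across genes at r = 0.0492. Alternatives were a mouse block, each array left out, other probe set rules, a dim gene filter, 2 scalings and a trended prior. Members and lists were chosen with earlier results of these data known. Named were all members, Mycn, Huwe1, and the 3 genes of smallest p in each list around the family. Huwe1, the ubiquitin ligase gene the study is about, had a mean of 9.80 in N-myc high cells and of 9.92 in N-myc low cells. Xist, Eif2s3y, Cd48, Jun, Atf3, Egr3 and the cell type markers given by name besides were chosen after their values were seen. Promoters come from RefSeq, and 3 KLF or SP genes (Klf8, Sp2 and Sp9) were not measured by a probe set used here.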

Additional observations from a re-analysis of the deposited data

How the results depend on the processing

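In limma, 0 KLF genes and 0 genes in all passed an adjusted p under 0.05 with the main settings and under each of the 11 alternatives, while 1148 of 18193 genes had an unadjusted p under 0.05. The smallest adjusted p of a member in any of them was 0.573. A replicate block for the mouse left the differences the same by construction (0.83 for Klf4, 0.78 for Klf9), 0 members passed and 1098 genes had an unadjusted p under 0.05, so the block changed no call. Without 1 array, differences ran from -0.84 to 1.48 for Klf2, from -1.38 to 0.50 for Klf5, from -0.33 to 0.0935 for Klf10, from -0.94 to 0.54 for Klf12 and from -0.58 to 0.29 for Klf13, each of which changed sign. Such fits hold 1 array in a group, which is assumed to vary like the other group. With the mean of a gene's probe sets, Klf12 changed sign to 0.30. Under that mean, 5 members in place of 2 were lower in both mice, and the share of all genes was not counted. That mean takes in the 3 Klf12 probe sets higher in both mice. It also takes in the other Klf5 and Klf13 probe sets, which were lower in both mice. Why probe sets of a gene differ was not tested. The count of members lower in both mice, and the other alternatives for it and for members higher in both mice, were chosen after seeing the data. The filter on dim genes left out 2 members, Klf5 and Klf12. The scalings moved the median of all genes from -0.03 to -0.08 and -0.02.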
